A study of Homo sapiens with 6 samples.

Results

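The genes described here are 8 reported targets of the transcription factor VEZF1, namely EDN1, PAQR4, SETBP1, CITED2, MMP1, MMP14, STMN3 and DNMT3B. They were taken by name from the study and from earlier work on VEZF1, and all 8 were found among the 59608 genes of the count table. The 6 libraries hold RNA of HepG2, a long-established line of human liver cancer cells. In all 6, endogenous VEZF1 had been targeted by a lentivirus-encoded sgRNA, so both groups share that step and differ in the form of VEZF1 that was put back. The 3 VEZF1-WT libraries received the wild-type protein, and the 3 VEZF1-2A libraries received a form in which a pair of serines is alanine. The study reports O-GlcNAc, a sugar attached to nuclear and cytosolic proteins, on that pair, among further candidate sites. None of the 6 libraries is from unedited HepG2 cells or from sgRNA-treated cells without re-expression, and whether the edited cells were a single clone is not stated in the sources used here. The question for these genes was whether their mRNA level depends on that pair of serines.

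VEZF1 is a zinc finger protein best known from the developing vasculature, where it is needed for normal blood vessel formation. It binds short runs of cytosine or guanine, and the promoter of EDN1 in endothelial cells was among its first described targets. Most of the 8 genes were linked to VEZF1 in endothelial, embryonic or tumor cells, and PAQR4 was linked to it in liver cancer.

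In short, 7 of the 8 genes had enough counts to be tested and 0 of them passed the adjusted threshold between VEZF1-WT and VEZF1-2A. CITED2 was the 1 gene of the 7 with an unadjusted p under 0.05 in edgeR's test, as had 2.13% of all genes tested, and was lower in VEZF1-WT. Its log2 fold change was −0.34, and −0.46 to −0.20 with single libraries left out, where the unadjusted p ranged from 0.00187 to 0.133. The 95% interval lay within 2-fold on either side of no change for 6 of the 7 genes, all but MMP1. EDN1 had a log2 fold change of −0.08. PAQR4 shares exon bases with a gene on the opposite strand, and MMP14 moved from −0.07 to −0.17 without replicate 3 of VEZF1-2A. STMN3 differed between replicates far more than between groups. SETBP1 and MMP1 rested on very few counts.

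The libraries held from 28756765 to 57199396 counts. VEZF1 itself had 59.3, 45.6 and 40 CPM (counts per 1000000 reads counted, scaled by TMM, edgeR's correction for library composition) with VEZF1-WT and 46.2, 48.6 and 38.9 CPM with VEZF1-2A. A count per gene does not separate endogenous from re-expressed VEZF1, or one form from the other, and so does not check the labels. All 8 hepatocyte-lineage markers set for the check were present, with a summed level from 14600 to 19500 CPM per library. The 7 endothelial markers summed to between 9.53 and 16 CPM. Of these, PECAM1 and TIE1 averaged at least 1 CPM, and CDH5, VWF, KDR, TEK and CLDN5 were each under 1 CPM on average. The 6 fibroblast markers summed to between 1.77 and 3.35 CPM, with PDGFRB and COL1A1 at 1 CPM or more on average. The 6 leukocyte markers summed to between 0.532 and 0.823 CPM. Of 24 proliferation genes, all tested, 21 had a log2 fold change above 0 (VEZF1-WT over VEZF1-2A) and the median was 0.06. The mean log2 CPM of these genes, centred over the libraries, was 0.143, −0.132 and 0.095 with VEZF1-WT. With VEZF1-2A it was −0.105, −0.129 and 0.129, so the groups overlapped. Of these genes 1 had an unadjusted p under 0.05 and was higher in VEZF1-WT, as were 0.832% of all genes tested, and 0 had an adjusted p under 0.05. Replicate 3 of each group stood apart from the other 4 libraries on the first principal component, with scores of 17.64 and 19.93 against −13.89 to −2.68. That component held 45.4% of the variance. For the genes tested, results that depend on replicate 3 are therefore given with and without it.

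Sequence context was examined first, because a C- or G-rich element in the EDN1 promoter is part of what is known of VEZF1. Of the 8 genes, 7 had at least 1 start site in the RefSeq promoter table for GRCh38.p14 (250 bases before to 50 bases after the start), 12 start sites in all, and MMP1 had none. The windows were searched on both strands for ACCCCC, the element known from EDN1, and for CCCCCC, a plain run. A longer run such as ACCCCCC holds both. At least 1 of the motifs was found at a start site of 5 of the 7 genes and at 8 of the 12 start sites. In the whole table it was found for 33.4% of 27305 genes and at 30.6% of 35116 start sites of the same window length. A match in EDN1 was fixed in advance, because ACCCCC was taken from its promoter. A gene with more start sites also has more windows in which to match. Whether the targets differ from the whole table was therefore not tested. ACCCCC alone was at 20% of all start sites and CCCCCC at 18.8%. The windows of CITED2 overlap each other, so they are not separate observations. PAQR4 and MMP14 held neither motif in these windows. For each of the 5 genes, 1 stretch with a match is shown 5′ to 3′ on the strand of the gene, with the matched letters in capitals. Matches at the further start sites of EDN1, SETBP1 and CITED2 are not printed.

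EDN1, chr6:12290261-12290360, plus strand: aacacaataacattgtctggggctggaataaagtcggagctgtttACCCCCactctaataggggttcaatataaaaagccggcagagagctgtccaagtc
SETBP1, chr18:44680728-44680887, plus strand: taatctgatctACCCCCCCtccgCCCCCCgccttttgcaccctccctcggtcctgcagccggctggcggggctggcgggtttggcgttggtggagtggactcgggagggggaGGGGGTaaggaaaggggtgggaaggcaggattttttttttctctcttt
STMN3, chr20:63652767-63652866, minus strand: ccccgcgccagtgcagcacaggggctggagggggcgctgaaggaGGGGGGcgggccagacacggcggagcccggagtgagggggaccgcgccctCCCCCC
DNMT3B, chr20:32779752-32779851, plus strand: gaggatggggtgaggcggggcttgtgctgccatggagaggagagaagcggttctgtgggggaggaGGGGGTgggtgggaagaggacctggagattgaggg
CITED2, chr6:139374769-139374868, minus strand: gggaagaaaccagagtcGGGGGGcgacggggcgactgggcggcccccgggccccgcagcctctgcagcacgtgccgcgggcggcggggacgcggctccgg

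The EDN1, SETBP1, STMN3 and DNMT3B stretches end at the base before a RefSeq start site, and that of CITED2 lies further upstream of one. The start sites of SETBP1 (44680888), STMN3 (63652766) and DNMT3B (32779852) lie inside the counted genes, whose 5′ ends are at 44680173, 63657682 and 32762385. A match in these letters is a description of the window and does not show that VEZF1 was bound in HepG2 cells, since binding was not analysed here.

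Levels between the 8 genes were compared per length, as CPM per kilobase of exon over all 6 libraries. MMP14 was the highest at 8.72, followed by PAQR4 at 8.33. CITED2 (4.33), STMN3 (3.81) and DNMT3B (3.71) came next, and EDN1 had 1.26. MMP1 (0.237) and SETBP1 (0.013) were far below. The ranges of MMP14 and PAQR4 over the libraries overlapped each other, as did those of CITED2, STMN3 and DNMT3B, so the order within each of these sets is not fixed by the data. The median over all genes tested was 2.37, and 5 of the 7 genes tested lay above it. PAQR4 is among these 5, but it shares 41.7% of its exon bases with a gene on the opposite strand, so its level is less certain. In bulk RNA such as this, a lower level can come from fewer cells with the transcript or from less RNA per cell, which cannot be told apart.

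**Figure D1:**
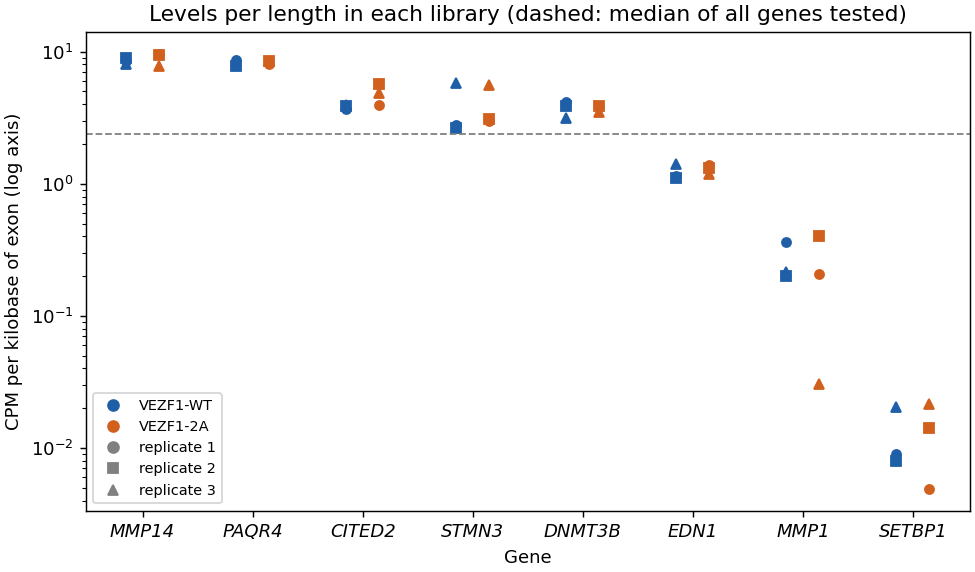
CPM per kilobase of exon on a log axis for the 8 genes, with 1 point per library coloured by group and shaped by replicate, and a dashed line at the median of all genes tested (2.37). MMP14, PAQR4, CITED2, STMN3 and DNMT3B lie above the line, while EDN1, MMP1 and SETBP1 lie below it.

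Over the whole table, 19111 genes passed the filter on low counts. In edgeR's quasi-likelihood test, 0 of them (0%) had a Benjamini-Hochberg adjusted p below 0.05, and 408 had an unadjusted p below it. Of the 7 reported targets tested, 1 had an unadjusted p under 0.05, beside 2.13% of all genes tested. That gene was lower in VEZF1-WT, which holds for 1.3% of all genes tested, and 0.832% were higher. The groups overlapped in each of the 7, while 7.36% of all genes tested had groups that did not overlap (VEZF1-WT below in 3.86% and above in 3.5%). Among the 7, 5 were lower and 2 higher in VEZF1-WT by sign alone. PAQR4, counted as lower, and DNMT3B, counted as higher, both had a log2 fold change of 0.00. The adjusted p was 0.9996 for each of the 7. The median log2 fold change of VEZF1-WT over VEZF1-2A was −0.04, against 0.00 over all genes tested. The median size of the change regardless of direction was 0.07 both for the 7 genes and for all genes tested. When the fit took the replicate number as a block, 6 genes of the table (0.0314%) passed the adjusted threshold and 825 (4.32%) an unadjusted p under 0.05, and again 1 of the 7 targets, CITED2, was among the latter. None of the 6 was a reported target. The 95% interval of the fold change lay within 2-fold in either direction for 6 of the 7 genes, the exception being MMP1.

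**Figure D2:**
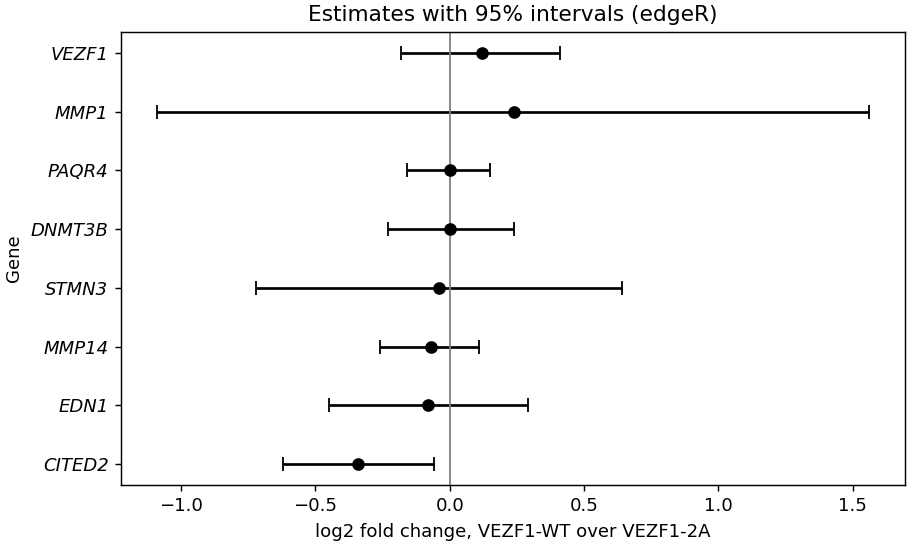
Log2 fold change of VEZF1-WT over VEZF1-2A on the horizontal axis for the 7 genes tested and for VEZF1, with points for the edgeR estimate and bars for its 95% interval. The interval of CITED2 (−0.62 to −0.06) lies below 0 before adjustment and that of MMP1 (−1.09 to 1.56) is the widest.

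CITED2 encodes a transcriptional coregulator that binds CBP and p300 and in doing so competes with HIF-1 alpha. The gene (ENSG00000164442) is on chromosome 6, minus strand, between 139371807 and 139374648 of GRCh38, and shares no exon bases with another counted gene. In VEZF1-WT, replicates 1, 2 and 3 were at 9.46, 9.94 and 10.1 CPM, and their VEZF1-2A counterparts were at 10.1, 14.5 and 12.5 CPM. The VEZF1-WT libraries sat close together, and the VEZF1-2A libraries spread upward from there. The groups just touched, since the highest VEZF1-WT library had 10.11 CPM and the lowest VEZF1-2A library 10.09. VEZF1-WT averaged 9.84 ± 0.335 CPM and VEZF1-2A averaged 12.4 ± 2.23 CPM (SD, n = 3 in each group). This was a log2 fold change of −0.34 ± 0.13 (standard error). Its unadjusted p in edgeR's test was 0.0233, and the adjusted p over all genes was 0.9996. With the replicate block these values were −0.32 ± 0.10, 0.0044 and 0.8625. The two-sided exact permutation test gave p = 0.2, where 3 libraries against 3 cannot go below 0.1. Replicate 2 of VEZF1-2A was the highest of the 6, and without it the log2 fold change was −0.20 with an unadjusted p of 0.133. Leaving out replicate 1 of VEZF1-WT moved the unadjusted p to 0.0724 (log2 fold change −0.31), and leaving out replicate 1 of VEZF1-2A moved it to 0.00187 (−0.46). Without both replicate 3 libraries the log2 fold change was −0.36, with an unadjusted p of 0.0301.

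Partners of CITED2 were counted in the same libraries. Of 10 genes set as a list (CITED proteins, coactivators, HIF subunits and AP-2 factors), 7 were tested, and CITED2 was the 1 with an unadjusted p under 0.05. HIF1A, the oxygen-regulated HIF subunit and the most abundant of the list per length, had 250 ± 22.6 CPM in VEZF1-WT and 256 ± 30.3 in VEZF1-2A (SD, n = 3 each), a log2 fold change of −0.04. The coactivator genes CREBBP and EP300 had log2 fold changes of 0.02 and −0.05. The list as a whole had a median of −0.04.

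PAQR4 encodes a membrane protein of the progestin and adipoQ receptor family and was reported in earlier work as a VEZF1 target in liver cancer. The gene (ENSG00000162073) lies on the plus strand of chromosome 16, from 2969270 to 2973484. In VEZF1-WT its level was 25.4, 22.9 and 25.1 CPM, against 23.6, 25.2 and 24.9 CPM in VEZF1-2A. The 6 values interleaved, and the 2 groups had the same mean to 3 digits. VEZF1-WT averaged 24.5 ± 1.33 CPM and VEZF1-2A averaged 24.5 ± 0.854 CPM (SD, n = 3 in each group). On the log2 scale the difference was 0.00 ± 0.07 (standard error), and its 95% interval ran from a ratio of 0.89 to a ratio of 1.11.

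What those reads come from is less certain. PKMYT1, which encodes a kinase that holds CDK1 inactive before mitosis, lies on the opposite strand from 2968024 to 2980479, and its exons share 1228 bases with those of PAQR4. That is 41.7% of the 2942 exon bases of PAQR4. The raw counts of PAQR4 were 1200, 817 and 1414 with VEZF1-WT and 687, 1007 and 826 with VEZF1-2A. Those of PKMYT1 were 1263, 842 and 1472 with VEZF1-WT and 694, 1017 and 862 with VEZF1-2A. In each of the 6 libraries the count of PAQR4 was between 0.95 and 0.99 times that of PKMYT1. Of 2062 pairs of genes on opposite strands that share exon bases and have at least 100 counts in every library, 39 (1.89%) had counts within 10% of each other in every library. The strand setting of the counting is not given in the sources used here, so the share of PAQR4 reads that belong to PKMYT1 was not tested.

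**Figure D3:**
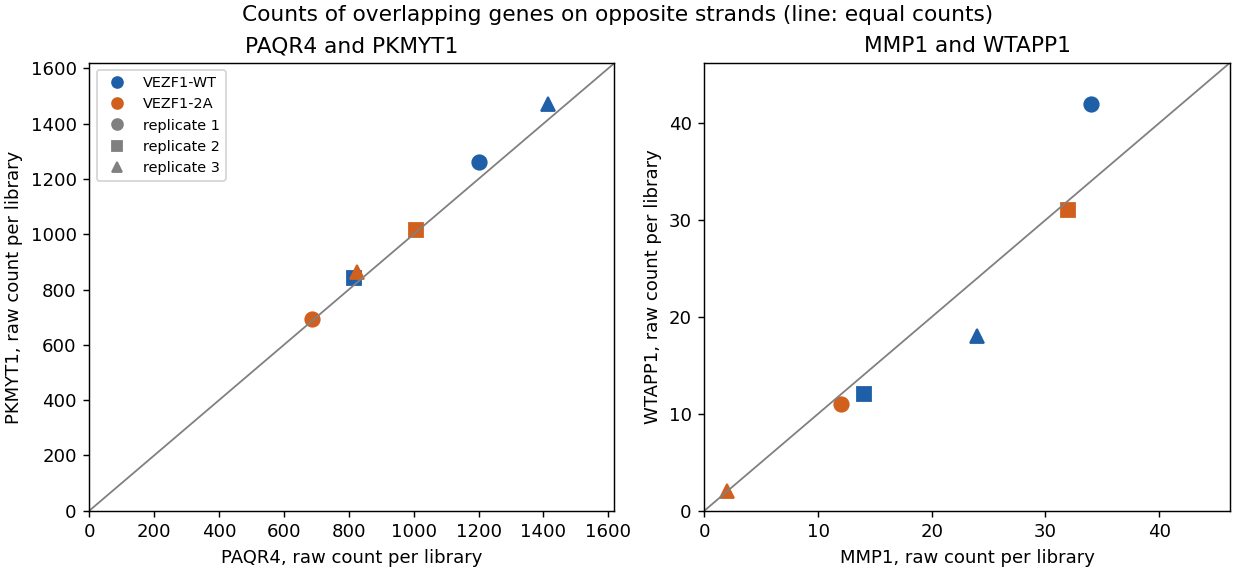
Raw counts per library of PAQR4 against PKMYT1 (left) and of MMP1 against WTAPP1 (right), pairs on opposite strands that share exon bases, with 1 point per library and a line at equal counts. PAQR4 and PKMYT1 lie next to the line in all 6 libraries (ratios from 0.95 to 0.99), and MMP1 and WTAPP1 scatter around it (ratios from 0.81 to 1.33).

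Of the 11 genes of the progestin and adipoQ receptor family, 9 were tested and 0 had an unadjusted p under 0.05. ADIPOR1, a receptor of the hormone adiponectin and the most abundant of them per length, had 59.2 ± 0.87 CPM in VEZF1-WT and 59 ± 1.09 in VEZF1-2A (SD, n = 3 each). PAQR8 had the smallest unadjusted p, 0.36 in edgeR's test, with a log2 fold change of −0.14. The family median was 0.00.

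EDN1 encodes preproendothelin-1, the precursor of a peptide that constricts blood vessels. The gene (ENSG00000078401) lies on the plus strand of chromosome 6, from 12290361 to 12297194, and shares no exon bases with another counted gene. In VEZF1-WT its level was 2.32, 2.25 and 2.87 CPM, against 2.81, 2.7 and 2.41 CPM in VEZF1-2A. Replicate 3 was the highest library of VEZF1-WT and the lowest of VEZF1-2A, and the groups overlapped. VEZF1-WT averaged 2.48 ± 0.343 CPM and VEZF1-2A averaged 2.64 ± 0.206 CPM (SD, n = 3 in each group). The log2 ratio of VEZF1-WT to VEZF1-2A was −0.08 ± 0.17 (standard error), with an unadjusted p of 0.631 in edgeR's test. Its 95% interval ran from a ratio of 0.73 to 1.22. Without both replicate 3 libraries it was −0.27, with an unadjusted p of 0.208.

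The rest of the endothelin system had few counts apart from 1 gene. Of the 7 genes listed, 2 were tested, EDN1 itself and ECE1, the enzyme that cleaves the precursor to active endothelin. ECE1 was at 34.4 ± 1.86 CPM in VEZF1-WT and 33.8 ± 1.03 in VEZF1-2A (SD, n = 3 each), a log2 fold change of 0.03. The receptor gene EDNRA had 0 counts in all 6 libraries, and EDN2, EDN3, EDNRB and ECE2 stayed below the filter.

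MMP14 encodes a membrane-anchored metalloproteinase that cleaves collagen at the cell surface and activates pro-MMP2, and MMP1 encodes a secreted collagenase. MMP14 (ENSG00000157227) lies on the plus strand of chromosome 14, from 22836560 to 22849027. In VEZF1-WT its level was 37.7, 39.8 and 36.2 CPM, against 42.8, 42.1 and 34.7 CPM in VEZF1-2A. The lowest and the highest library were both of VEZF1-2A, so the groups overlapped. VEZF1-WT averaged 37.9 ± 1.78 CPM and VEZF1-2A averaged 39.9 ± 4.45 CPM (SD, n = 3 in each group), a log2 fold change of −0.07 ± 0.08 (standard error). The unadjusted p was 0.4 in edgeR's test and the 95% interval ran from a ratio of 0.83 to 1.08. The value depended on replicate 3 of VEZF1-2A, without which the log2 fold change was −0.17 and the unadjusted p 0.0376 (adjusted p = 0.9206). Without both replicate 3 libraries these were −0.14 and 0.0766.

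MMP1 (ENSG00000196611) is on chromosome 11, minus strand, between 102789919 and 102798160. It had only 34, 14 and 24 raw counts with VEZF1-WT and 12, 32 and 2 with VEZF1-2A. In CPM this was 0.718, 0.393 and 0.426 with VEZF1-WT and 0.412, 0.799 and 0.0603 with VEZF1-2A. The highest and the lowest library were both of VEZF1-2A. With the replicate block the log2 fold change was 0.42, and without it 0.24. The latter had a standard error of 0.60, and the 95% interval ran from a ratio of 0.47 to 2.95, which includes a 2-fold difference either way. The sign turned without replicate 3 of VEZF1-2A (−0.27) and without replicate 1 of VEZF1-WT (−0.09), and without replicate 2 of VEZF1-2A the log2 fold change was 1.16. The exact 95% binomial interval of replicate 3 of VEZF1-2A was 0.00713 to 0.213 counts per 1000000, below that of replicate 2 of VEZF1-2A (0.553 to 1.14).

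MMP1 also shares 150 exon bases (7.6% of its exons) with WTAPP1, a pseudogene on the opposite strand. WTAPP1 had 42, 12 and 18 counts with VEZF1-WT and 11, 31 and 2 with VEZF1-2A, so the raw counts, which also carry library size, rank the 6 libraries in the same order for both genes. In CPM the order differed, with replicate 1 of VEZF1-WT highest for WTAPP1 (0.887) and replicate 2 of VEZF1-2A highest for MMP1 (0.799). How the shared reads were assigned was not tested.

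Of 24 metalloproteinases, inhibitors and regulators set as a list, 14 were tested, 0 had an unadjusted p under 0.05 in either direction, and MMP12 and MMP13 had 0 counts in all 6 libraries. BSG, an inducer of metalloproteinases, was the most abundant per length, with a log2 fold change of 0.04. MMP2, the gelatinase that MMP14 activates, had the smallest unadjusted p (0.0822 in edgeR's test) at only 0.353 ± 0.128 CPM in VEZF1-WT and 0.614 ± 0.205 in VEZF1-2A (SD, n = 3 each), a log2 fold change of −0.76. The median over the 14 was −0.02.

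**Figure D4:**
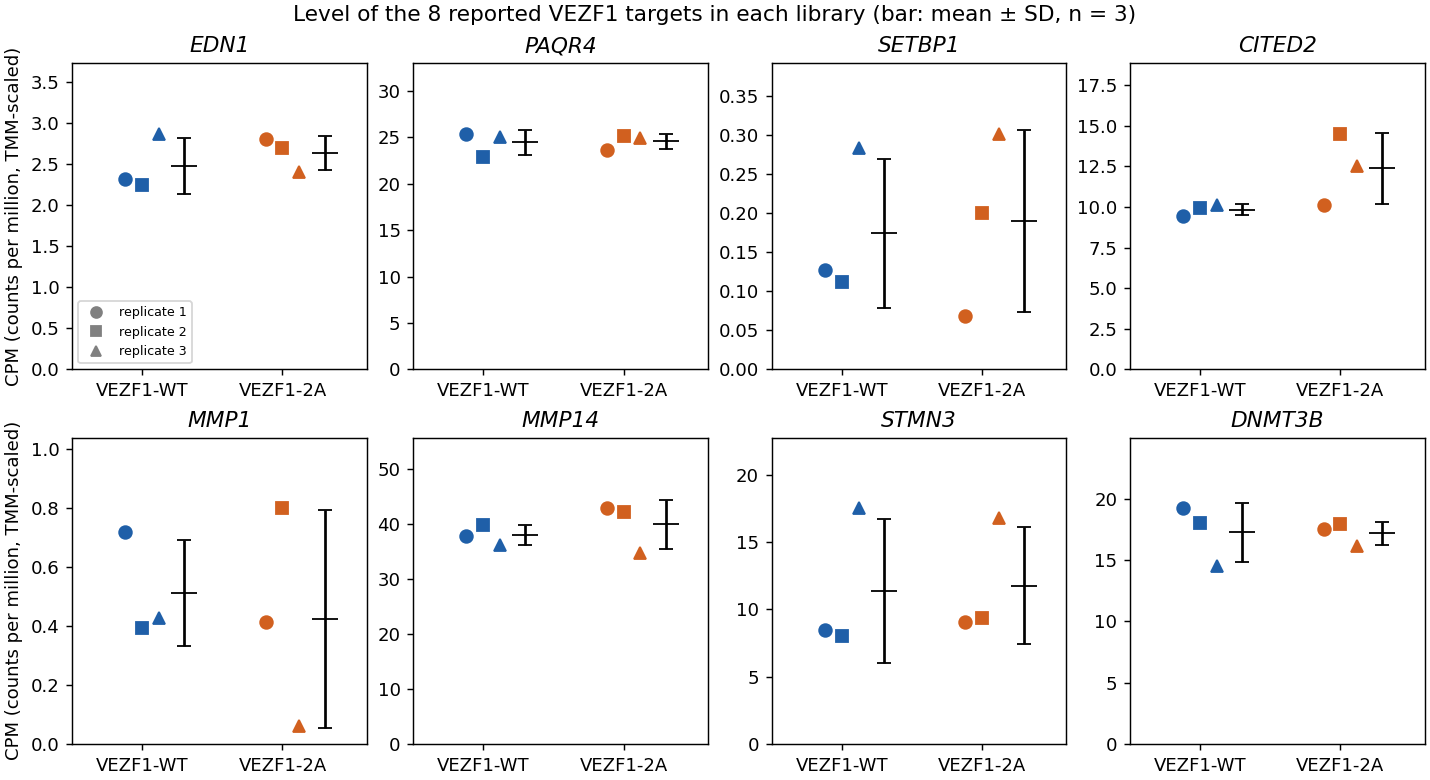
CPM of each of the 8 genes in each library, on linear axes that start at 0, with the symbol giving the replicate number and the bar the mean ± SD (n = 3). STMN3 and SETBP1 have their highest library in replicate 3 of both groups. For CITED2 some of the VEZF1-2A libraries lie above those of VEZF1-WT, and for MMP14 the highest and the lowest library are both of VEZF1-2A.

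STMN3 encodes a stathmin-family protein that destabilizes microtubules and is best known from neurons. The gene (ENSG00000197457) is on chromosome 20, minus strand, between 63639705 and 63657682, and shares no exon bases with another counted gene. In VEZF1-WT, replicates 1, 2 and 3 were at 8.47, 8.03 and 17.5 CPM, and their VEZF1-2A counterparts were at 9.09, 9.39 and 16.8 CPM. In both groups replicate 3 stood far above the other libraries, and the other 4 lay together. Replicate 3 was 2.12 times the mean of replicates 1 and 2 in VEZF1-WT and 1.81 times in VEZF1-2A. Of all genes tested, 0.978% reached 1.5 times in both groups, and for 15.4% both replicate 3 libraries lay above the other 4.

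Between the groups STMN3 did not separate, since VEZF1-WT averaged 11.3 ± 5.32 CPM and VEZF1-2A 11.8 ± 4.35 CPM (SD, n = 3 in each group). Its log2 fold change of −0.04 had a standard error of 0.31, and the unadjusted p in edgeR's test was 0.899. Its 95% interval ran from a ratio of 0.61 to 1.56. With the replicate block, which compares libraries of the same number, it was −0.08 with a standard error of 0.09 and an unadjusted p of 0.4067. Without both replicate 3 libraries it was −0.17 with an unadjusted p of 0.187. Leaving out replicate 3 of one group alone moved it to −0.51 (VEZF1-WT) or 0.30 (VEZF1-2A), so the sign depended on which libraries were compared.

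The pattern of STMN3 over the 6 libraries was most like those of AFP and RELN among 11067 genes with at least 5 CPM. Likeness was the root mean square difference of log2 CPM, each gene centred on its own mean, and was 0.121 for AFP and 0.127 for RELN, where STMN3 itself deviated by 0.46. AFP, the fetal serum protein alpha-fetoprotein, had 1930, 2040 and 3640 CPM with VEZF1-WT and 1760, 2070 and 3480 CPM with VEZF1-2A. RELN, which encodes the secreted glycoprotein reelin, had 221, 231 and 455 CPM with VEZF1-WT and 203, 212 and 428 CPM with VEZF1-2A. STMN1, the family member known from dividing cells, had 587 ± 46.9 CPM in VEZF1-WT and 569 ± 47.2 in VEZF1-2A (SD, n = 3 each), and its replicate 3 was 1.03 and 1.14 times the mean of the others. STMN2 had 0 counts in all 6 libraries and STMN4 stayed below the filter.

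**Figure D5:**
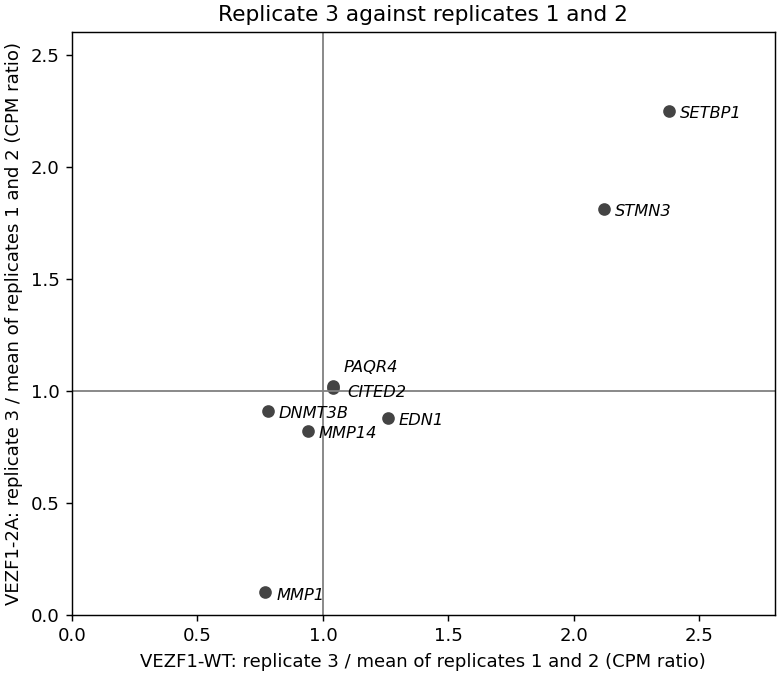
Ratio of the CPM of replicate 3 to the mean of replicates 1 and 2 in VEZF1-WT (horizontal) and in VEZF1-2A (vertical), with 1 point per gene and lines at a ratio of 1. STMN3 (2.12 and 1.81) and SETBP1 (2.38 and 2.25, on few counts) lie high in both groups. DNMT3B (0.78 and 0.91), MMP14 (0.94 and 0.82) and MMP1 (0.77 and 0.1, on few counts) lie below 1 in both.

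DNMT3B encodes a de novo DNA methyltransferase, and its transcript level is known to depend on Vezf1 in mouse embryonic stem cells. The gene (ENSG00000088305) lies on the plus strand of chromosome 20, from 32762385 to 32809356. In VEZF1-WT its level was 19.2, 18 and 14.5 CPM, against 17.5, 17.9 and 16.1 CPM in VEZF1-2A. In both groups replicate 3 was the lowest library, and the VEZF1-2A values lay inside the range of VEZF1-WT. VEZF1-WT averaged 17.2 ± 2.42 CPM and VEZF1-2A averaged 17.1 ± 0.937 CPM (SD, n = 3 in each group), a log2 fold change of 0.00 ± 0.11 (standard error). The 95% interval ran from a ratio of 0.85 to 1.18. Without both replicate 3 libraries the log2 fold change was 0.07, with an unadjusted p of 0.454 in edgeR's test. Of 9 genes that write, maintain or remove DNA methylation, 8 were tested and 0 had an unadjusted p under 0.05. DNMT1, which copies methylation after replication, was the most abundant per length with 333 ± 21.8 CPM in VEZF1-WT and 325 ± 22.3 in VEZF1-2A (SD, n = 3 each). TET2, which oxidizes methylcytosine, had the smallest unadjusted p, 0.143 in edgeR's test, with a log2 fold change of −0.19.

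SETBP1 encodes a protein that binds the oncoprotein SET, an inhibitor of the phosphatase PP2A. The gene (ENSG00000152217) lies on the plus strand of chromosome 18, from 44680173 to 45068510, with 14024 exon bases. It had 6, 4 and 16 raw counts with VEZF1-WT and 2, 8 and 10 with VEZF1-2A, which was too few for the filter, so it was not tested in the fit used here. In counts per 1000000, the exact 95% binomial interval ran from 0.00842 to 0.251 in the lowest library (replicate 1 of VEZF1-2A) and from 0.141 to 0.541 in the highest (replicate 3 of VEZF1-2A). These intervals cover counting error only, and they overlapped. With the filter dropped, the log2 fold change was −0.09 with a 95% interval from −1.40 to 1.22, which includes a 2-fold difference either way. SETBP1 passed the filter in the fits without replicate 2 of VEZF1-WT (log2 fold change 0.11) and without replicate 1 of VEZF1-2A (−0.45), so its sign depended on single libraries.

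The partners of SETBP1 were abundant. Of 8 genes around SET and PP2A, 7 were tested and 0 had an unadjusted p under 0.05. SET had 894 ± 50.8 CPM in VEZF1-WT and 865 ± 41.7 in VEZF1-2A (SD, n = 3 each), a log2 fold change of 0.05, and was the highest of the list per length. CIP2A, another inhibitor of PP2A, had the smallest unadjusted p, 0.267 in edgeR's test, with a log2 fold change of 0.10.

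The patterns of the other members with at least 5 CPM were compared in the same way over the 6 libraries. CITED2 was most like TCIM (0.031) and NPTXR (0.064), on a deviation of its own of 0.22. TCIM had 55.6, 58.7 and 59 CPM with VEZF1-WT and 60.4, 85.2 and 69.7 CPM with VEZF1-2A. TCIM and the other nearest genes, AFP and RELN included, were picked for likeness over these same 6 libraries. That TCIM shares its highest library with CITED2 therefore follows from the choice. DNMT3B was most like NFIC (0.038) and PROM1 (0.04), on a deviation of 0.13. PAQR4 was most like GGA2 (0.011) and GMFB (0.014), and MMP14 like RIPOR1 (0.015) and SCARB2 (0.016). PAQR4 and MMP14 themselves deviated by only 0.05 and 0.11.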

How the data were processed

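RNA of 3 VEZF1-WT and 3 VEZF1-2A libraries was compared, with groups and replicate numbers from the labels. The authors deposited whole-number counts per gene without normalization, on GRCh38 (submitters' processing notes). Per the labels, a SMARTER mRNA kit was used. The aligner, counter, annotation release and strand setting are not given in the sources used here. Of 59613 lines, 5 (a broken entry of ANK2) were left out. Between 81% and 83% of counts from 1 to 10 were even, so counts may not be independent, and the binomial intervals, which treat them as such, may be too narrow.

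Counts were analysed with edgeR 4.0.16 in R 4.3.3 (filterByExpr with minimum count 10 and total 15, TMM, glmQLFit, glmQLFTest, group alone, two-sided, Benjamini-Hochberg over the genes tested), after a test on simulated counts. The simulated counts held no shift shared by same-numbered libraries, so that test does not cover such shifts. Intervals used the fit's standard errors. Permutation tests used log2 of CPM plus 0.1. Whether replicates are separate cultures is not stated, so p-values measure the spread between these libraries. Same-numbered libraries deviated together over genes (correlations of 0.15, 0.23 and 0.57 for replicates 1, 2 and 3), which the labels do not explain. However, replicate 2 of VEZF1-WT correlated more with replicate 1 of VEZF1-2A (0.35) than with replicate 2 of VEZF1-2A. Numbers 1 and 2 are therefore not clear pairs. The main fit, with group alone, did not take same-numbered libraries as pairs. The fit with the replicate block did, and it is given beside the counts it changed.

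Members and lists were chosen with earlier results of these data known. Named genes are the 8 targets, VEZF1, genes overlapping a target, for each list all tested genes (lists of at most 5) or the most abundant and that with the smallest unadjusted p, and the 2 nearest patterns of targets with at least 5 CPM. CREBBP, EP300, the markers and genes at 0 or below the filter were named after their values were seen. Alternatives included DESeq2 1.42.0 and limma 3.58.1. Promoters were from RefSeq. Figures used matplotlib 3.10.9.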

Additional observations from a re-analysis of the deposited data

How the results depend on the processing

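Under 16 alternatives the 7 genes gave 111 log2 fold changes, of which 0 passed the adjusted threshold, 94 kept their sign and 17 did not. EDN1, CITED2 and MMP14 kept theirs in all 16. The count of genes of the table at an adjusted p under 0.05 was 16 without the filter, 3 with DESeq2, 6 with the replicate block, 4 without replicate 3 of both groups (chosen after seeing the data) and 0 with any single library left out. At an unadjusted p under 0.05 there were 896, 219, 825 and 833 in the same order, and from 292 to 973 with single libraries left out. Targets at an unadjusted p under 0.05 numbered from 0 to 2 with single libraries left out, and 1 in the other alternatives. Their median was −0.14 without replicate 3 of both groups and from −0.14 to −0.02 with single libraries left out. Replicate 3 of VEZF1-2A gave the extremes of 973, 2 and −0.14. Apart from these counts the replicate block changed no call. DNMT3B was at 0.00 with it.

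PAQR4 had log2 fold changes of 0.01 without the filter and 0.02 after thinning to the smallest library, and −0.03 to 0.04 with single libraries left out. DNMT3B had −0.02 with limma voom, 0.00 after thinning and −0.09 to 0.12 with single libraries left out. MMP1 had −0.13 without replicate 3 of both groups and −0.27 to 1.16 with single libraries left out, and was not tested with counts halved. STMN3 ranged from −0.51 to 0.30 with single libraries left out. Of the 17 sign changes, 5 were of PAQR4 and 6 of DNMT3B, both at 0.00 in the main fit, and MMP1 and STMN3 had 3 each. The cause of these sign changes was not tested. A pseudocount of 1 in the permutation test changed no direction. MMP1 and SETBP1 had 34 and 16 counts at most in a library, and the part of depth in their wide intervals was not tested.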
